A study of Mus musculus with 8 samples.

Results

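In all, 38 genes of signalling from the B cell receptor, listed by their place in the pathway, were followed in pre-BII cells that lacked Aiolos, OBF-1 or both. Of the 38 genes, 33 had a probe set annotated to that gene alone, among 12393 genes and 22626 probe sets tested. They were 8 kinases, 9 adaptors and membrane effectors, 8 inhibitory receptors, phosphatases and inhibitory adaptors, and 8 genes of the Ras and protein kinase C branch and downstream. Where a gene had several probe sets, as 16 of the 33 had, the one with the highest mean over the 8 arrays was read. Cblb, Hras, Malt1, Mapk3 and Rasgrp3 were not analysed here.

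The groups were Aiolos/OBF-1 double-mutant mice, single mutants for Aiolos or for OBF-1, and wild type mice, all Bl6 and 7 weeks old by the labels, with 2 arrays each. Both deletions are carried by the whole animal, so they are not limited to pre-B cells. The methods describe B220+ CD25+ pre-BII cells sorted from pools of 8 mice, 1 pool per array, whereas the labels call each sample bone marrow and name a single mouse for the mutants. The methods are followed here. The values are intensities made with RMA by the submitters' notes, arbitrary units of probe brightness on a linear scale that order arrays for 1 probe set and not genes against each other. Fold changes are differences of log2 intensity, and a gene passed the test when the limma p, adjusted by Benjamini-Hochberg over all probe sets, was under 0.05.

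Array medians lay between 66.8 and 69.4 units, and arrays of 1 genotype correlated with an r of 0.9961 to 0.9965 across probe sets. Pou2af1, which encodes OBF-1, averaged 221 units in the double mutant, 2638 in the Aiolos mutant, 239 in the OBF-1 mutant and 2720 in wild type, as the labels require. Ikzf3, which encodes Aiolos, was not analysed here. Of 10 pre-B cell markers measured, 9 averaged at least 100 units in every genotype. The exception, Pax5, averaged 68.5, 62.1, 62.6 and 66.7 units in the double, Aiolos and OBF-1 mutants and wild type. At least 100 units was also reached by 10 of 11 granulocyte and monocyte markers in every genotype, so these levels do not show how pure the cells were. Fluidics station 1 washed the arrays lacking Aiolos and station 2 those with it. Modules 3 and 4 washed the arrays lacking OBF-1 and modules 1 and 2 those with it. Loss of Aiolos and station, and likewise loss of OBF-1 and module, cannot be told apart. In such bulk samples fewer cells of a type and less RNA per cell cannot be told apart either.

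When the B cell receptor or, in pre-B cells, the pre-B cell receptor is engaged, Src family kinases phosphorylate its Cd79a and Cd79b chains, and the kinase Syk binds there. Syk phosphorylates the adaptor Blnk, which brings the kinase Btk to phospholipase C gamma 2. The lipase makes the messengers that open calcium stores and turn on protein kinase C and Ras. Inhibitory receptors such as Cd22, Cd72 and Fcgr2b recruit phosphatases that quench the signal. OBF-1 is recruited to octamer DNA by Oct-1 and Oct-2, and Aiolos, a relative of Ikaros with zinc fingers, binds DNA with a GGGAA core.

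The promoters below are shown because these motifs are the DNA elements that the deleted factors are known for, and because each gene passed the test in at least 1 comparison. RefSeq promoters (GRCm38.p6) were matched for 28 of the 33 genes, 40 promoters in all, and the 250 bases before the start site were searched on both strands. The octamer ATGCAAAT stood in 526 of 32851 promoters (1.6%), and in 2 of the 40 promoters of the signalling genes, those of Blnk and Prkcb. In the Blnk promoter (chr19:40994222-40994471, minus strand), the capitals mark the octamer as its reverse complement, with its first base at -130 from the start site. In the Prkcb promoter (chr7:122288875-122289124, plus strand) they mark it as spelled, at -70.
Blnk: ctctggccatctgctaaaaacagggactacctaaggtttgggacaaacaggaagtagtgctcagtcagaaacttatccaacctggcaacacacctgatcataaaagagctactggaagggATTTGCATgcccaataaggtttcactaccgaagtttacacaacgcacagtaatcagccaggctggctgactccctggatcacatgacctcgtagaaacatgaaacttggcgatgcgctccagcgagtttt
Prkcb: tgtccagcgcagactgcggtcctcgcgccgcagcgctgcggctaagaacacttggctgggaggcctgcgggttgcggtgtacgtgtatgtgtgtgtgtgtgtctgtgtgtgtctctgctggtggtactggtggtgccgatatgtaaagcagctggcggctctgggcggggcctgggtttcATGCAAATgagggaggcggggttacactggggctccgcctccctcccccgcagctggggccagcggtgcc
The core TGGGAA stood in 21.6% of all promoters and, a similar share, in 10 of the 40 promoters of the signalling genes. These belonged to 8 genes, Akt1, Akt2, Btk, Cd22, Lcp2, Plcg2, Ptpn22 and Ptpn6. By the probe sets read, Cd22, Lcp2 and Ptpn22 passed in at least 1 comparison, and Akt1, Akt2, Btk, Plcg2 and Ptpn6 in none. In the Lcp2 promoter (chr11:34046678-34046927, plus strand) the capitals mark it at -43, and in the Cd22 promoter (chr7:30879029-30879278, minus strand) at -145, as spelled in both. Both sequences also hold GGGAA without a T before it, which was not searched and is not marked.
Lcp2: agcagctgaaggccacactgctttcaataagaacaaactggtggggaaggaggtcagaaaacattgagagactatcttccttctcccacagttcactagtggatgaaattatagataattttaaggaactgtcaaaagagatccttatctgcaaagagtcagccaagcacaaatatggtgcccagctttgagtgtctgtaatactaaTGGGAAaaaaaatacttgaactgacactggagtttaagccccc
Cd22: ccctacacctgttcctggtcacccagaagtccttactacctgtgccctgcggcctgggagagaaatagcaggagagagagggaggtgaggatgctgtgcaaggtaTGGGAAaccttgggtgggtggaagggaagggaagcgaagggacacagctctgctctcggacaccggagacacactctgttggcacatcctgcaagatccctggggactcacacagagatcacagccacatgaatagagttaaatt
A match is a description of the letters, and binding at these promoters was not measured here.

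Loss of both factors changed 9 of the 33 genes against wild type, while Syk, Btk and Blk did not pass. Fyn, Blnk, Lcp2, Cd22, Fcgr2b and Ptpn22 rose, and Map4k1, Dok3 and Nfatc3 fell. The largest change was a 2.17-fold rise of Lcp2 (log2 1.12, standard error 0.103). The 9 genes are 27.3% of the members, against 9.03% of all genes passing (4.9% higher and 4.13% lower) and 14.5% of genes with a mean of at least 100 units. The median log2 fold change was -0.000 over the members and 0.014 over all genes, so the members did not shift together in 1 direction. With each array centred on its median the split was 5 higher and 4 lower, in place of 6 higher and 3 lower. Arrays of 2 genotypes often do not overlap. Double-mutant and wild type arrays did not overlap for 49.4% of all genes. Of the 33 members, 10 lay above wild type, 12 below, and 11 overlapped it. In the other comparisons of 2 genotypes, 44.4% to 54.2% of all genes did not overlap. Non-overlap of 2 genotypes therefore does not set apart the genes that passed.

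Of the 8 kinases, Fyn rose and Map4k1 fell in the double mutant. Fyn, a Src family kinase that phosphorylates receptor chains in T and B cells, had 415 and 371 units in double mutants, 216 and 181 in Aiolos mutants, 316 and 335 in OBF-1 mutants and 262 and 244 in wild type. No genotypes overlapped, with the double mutant highest and the Aiolos mutant lowest. Its log2 fold change against wild type was 0.64 in the double mutant (standard error 0.109, adjusted p = 0.00327), -0.35 in the Aiolos mutant (adjusted p = 0.121) and 0.37 in the OBF-1 mutant (adjusted p = 0.138). A second Fyn probe set had 0.76 there and passed (adjusted p = 0.000678).

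Map4k1 (HPK1), a kinase that damps antigen receptor signalling by phosphorylating Blnk and Lcp2, had 498 and 434 units in double mutants, 601 and 636 in Aiolos mutants, 608 and 563 in OBF-1 mutants and 792 and 680 in wild type. The double mutant was lowest and wild type highest, with both single mutants overlapping between them. The log2 fold change was -0.66 in the double mutant (standard error 0.109, adjusted p = 0.00263), and neither single mutant passed (-0.25, adjusted p = 0.25, and -0.33, adjusted p = 0.194). Fyn and Map4k1 passed in the double mutant whichever array was left out, but not without moderation of the variances (adjusted p = 0.106 and 0.103).

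The other 6 kinases stayed within narrow bounds in the double mutant. Syk, the kinase that couples the receptor to its adaptors, had 4760 and 4901 units in double mutants, 4440 and 4435 in Aiolos mutants, 5166 and 5407 in OBF-1 mutants and 4963 and 4717 in wild type, and the double mutant overlapped wild type. Its log2 fold change was -0.00 with a 95% interval of -0.20 to 0.19. Btk, which activates phospholipase C gamma 2, had an interval of -0.20 to 0.20, and the Src family kinase Blk one of -0.22 to 0.18. Csk, which holds Src kinases inactive, had -0.07 (-0.30 to 0.15). Akt1 and Akt2, kinases downstream of phosphoinositide 3-kinase, had -0.16 (-0.39 to 0.06) and 0.01 (-0.28 to 0.29).

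**Figure D1:**
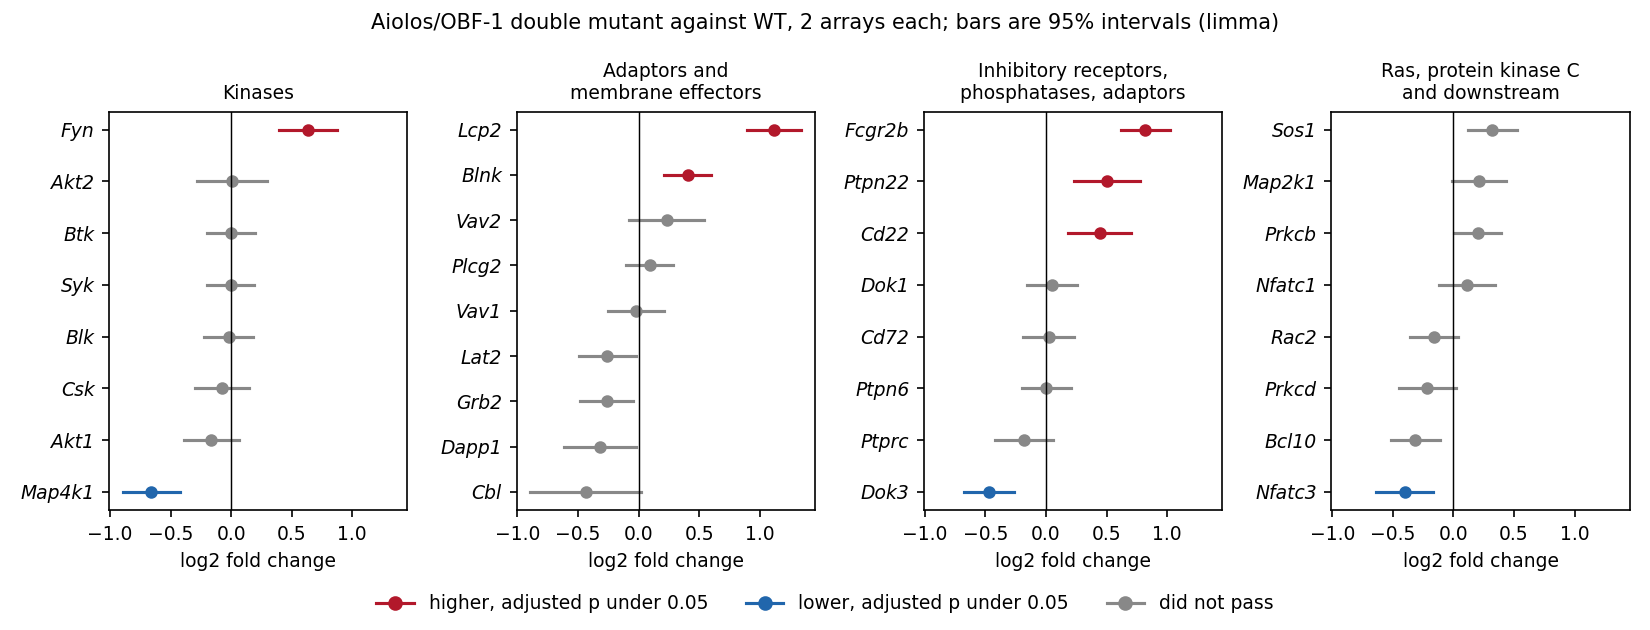
Log2 fold change of the 33 signalling genes in the Aiolos/OBF-1 double mutant against wild type (x axis), by role group, with 95% limma intervals from 2 arrays per genotype. Lcp2 at 1.12 and Fcgr2b at 0.82 lie highest, Map4k1 at -0.66 lies lowest, and the kinases Syk, Btk and Blk lie at 0.

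Among the 9 adaptors and membrane effectors, Lcp2 and Blnk rose in the double mutant. Lcp2 (SLP-76), the adaptor that in T cells and myeloid cells takes the place Blnk has in B cells, had 216 and 239 units in double mutants, 117 and 102 in Aiolos mutants, 139 and 151 in OBF-1 mutants and 107 and 102 in wild type. Double-mutant arrays were above all others, OBF-1 arrays above Aiolos and wild type arrays, and the last pair overlapped. The change in the double mutant (adjusted p = 3.23e-05) passed under every alternative tried. A second Lcp2 probe set, at 36 to 42 units, did not pass (0.18, adjusted p = 0.319), and the average of both probe sets had 0.65.

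Blnk, the adaptor of the B cell receptor itself, had 3661 and 3611 units in double mutants, 3056 and 3216 in Aiolos mutants, 3510 and 3440 in OBF-1 mutants and 2696 and 2794 in wild type. The genotypes did not overlap and stood in that falling order of double, OBF-1, Aiolos and wild type. The rise was 0.41 in the double mutant (standard error 0.0875, adjusted p = 0.0136), and 0.34 in the OBF-1 mutant did not pass (adjusted p = 0.0807). The double-mutant rise did not pass without wild type replicate 1 (adjusted p = 0.0863), wild type replicate 2 (0.0558) or double-mutant replicate 1 (0.0727).

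The other 7 of this group did not pass in the double mutant. Grb2, the adaptor that brings Sos to the membrane, had -0.26 (adjusted p = 0.15), although a second Grb2 probe set passed with -0.52 (adjusted p = 0.0263). The membrane adaptor Lat2 had -0.26, the phosphoinositide-binding adaptor Dapp1 -0.32 and the ubiquitin ligase Cbl -0.44 with an interval of -0.90 to 0.02. The exchange factors Vav1 and Vav2 had -0.02 and 0.23. Plcg2, which encodes phospholipase C gamma 2, had 0.09 with an interval of -0.11 to 0.29.

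The inhibitory group held 4 of the 9 genes that passed, with 3 higher and 1 lower of its 8 members (50%, beside 9.03% of all genes). Fcgr2b, the inhibitory receptor for the Fc part of IgG, had 1498 and 1433 units in double mutants, 1018 and 982 in Aiolos mutants, 1287 and 1267 in OBF-1 mutants and 792 and 867 in wild type. No genotype overlapped another. The log2 fold change was 0.82 in the double mutant (standard error 0.0911, adjusted p = 0.000141), and this passed under every alternative. The other 3 Fcgr2b probe sets rose by 0.62, 0.85 and 0.73 (adjusted p = 0.00194, 0.0025 and 0.00231). By its type, the Fcgr2b probe set read here may also detect related transcripts.

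Cd22, a sialic acid-binding inhibitory receptor of B cells, had 1750 and 1693 units in double mutants, 1005 and 1280 in Aiolos mutants, 1447 and 1342 in OBF-1 mutants and 1336 and 1201 in wild type. The double mutant was above all other arrays, and the Aiolos mutant overlapped wild type. Its rise of 0.44 (standard error 0.119, adjusted p = 0.0388) did not pass with arrays centred on their medians (adjusted p = 0.0562), without either double-mutant array (0.176 and 0.102) or without either wild type array (0.0793 and 0.223). A second Cd22 probe set rose by 0.68 (adjusted p = 0.028).

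Ptpn22, a tyrosine phosphatase that inhibits Src and Syk family kinases, was dim, with 46.4 and 60.8 units in double mutants, 45.2 and 40.4 in Aiolos mutants, 51.4 and 54.0 in OBF-1 mutants and 37.4 and 37.6 in wild type. All mutant arrays were above wild type. The rise of 0.50 in the double mutant (adjusted p = 0.0261) did not pass without wild type replicate 1 (0.117), wild type replicate 2 (0.116) or double-mutant replicate 2 (0.159), nor with 16 units added before the log2 (0.0513).

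Dok3, an adaptor that restrains receptor signalling, ran the other way. It had 1220 and 1165 units in double mutants, 1839 and 1693 in Aiolos mutants, 1183 and 1295 in OBF-1 mutants and 1681 and 1618 in wild type. All 4 arrays without OBF-1 were below all 4 arrays with it. The log2 fold change was -0.47 in the double mutant (standard error 0.0945, adjusted p = 0.00929), which did not pass without wild type replicate 1 (0.0681) or double-mutant replicate 2 (0.052).

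The other inhibitory genes did not pass in the double mutant. Cd72 and Ptpn6 (SHP-1, the phosphatase these receptors recruit) had 0.02 and 0.00, the adaptor Dok1 had 0.05, and Ptprc (CD45, which activates Src kinases by removing an inhibitory phosphate) had -0.18. For Ptpn6 the 95% interval was -0.20 to 0.21. Ptpn6 in the OBF-1 mutant is taken up with that genotype.

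Of the 8 genes of the Ras and protein kinase C branch and downstream, only Nfatc3 passed in the double mutant. Nfatc3, a transcription factor turned on by calcium, had 313 and 302 units in double mutants, 310 and 340 in Aiolos mutants, 331 and 274 in OBF-1 mutants and 403 and 411 in wild type. All mutant arrays were below wild type and overlapped each other. Its log2 fold change of -0.40 (adjusted p = 0.0369) did not pass without any 1 of the 4 arrays compared (adjusted p = 0.118 and 0.136 without double-mutant replicates 1 and 2, 0.129 and 0.16 without wild type replicates 1 and 2). A second Nfatc3 probe set had -0.65 (adjusted p = 0.0262).

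Among the rest of the branch, Sos1, which loads Ras with GTP, had 0.32 (adjusted p = 0.0536), and Bcl10, an adaptor that links protein kinase C to NF-kappaB, had -0.31 (adjusted p = 0.0631). Map2k1 had 0.21, Prkcb 0.20, Nfatc1 0.11, the GTPase Rac2 -0.16 and Prkcd -0.22, none of them past the test.

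**Figure D2:**
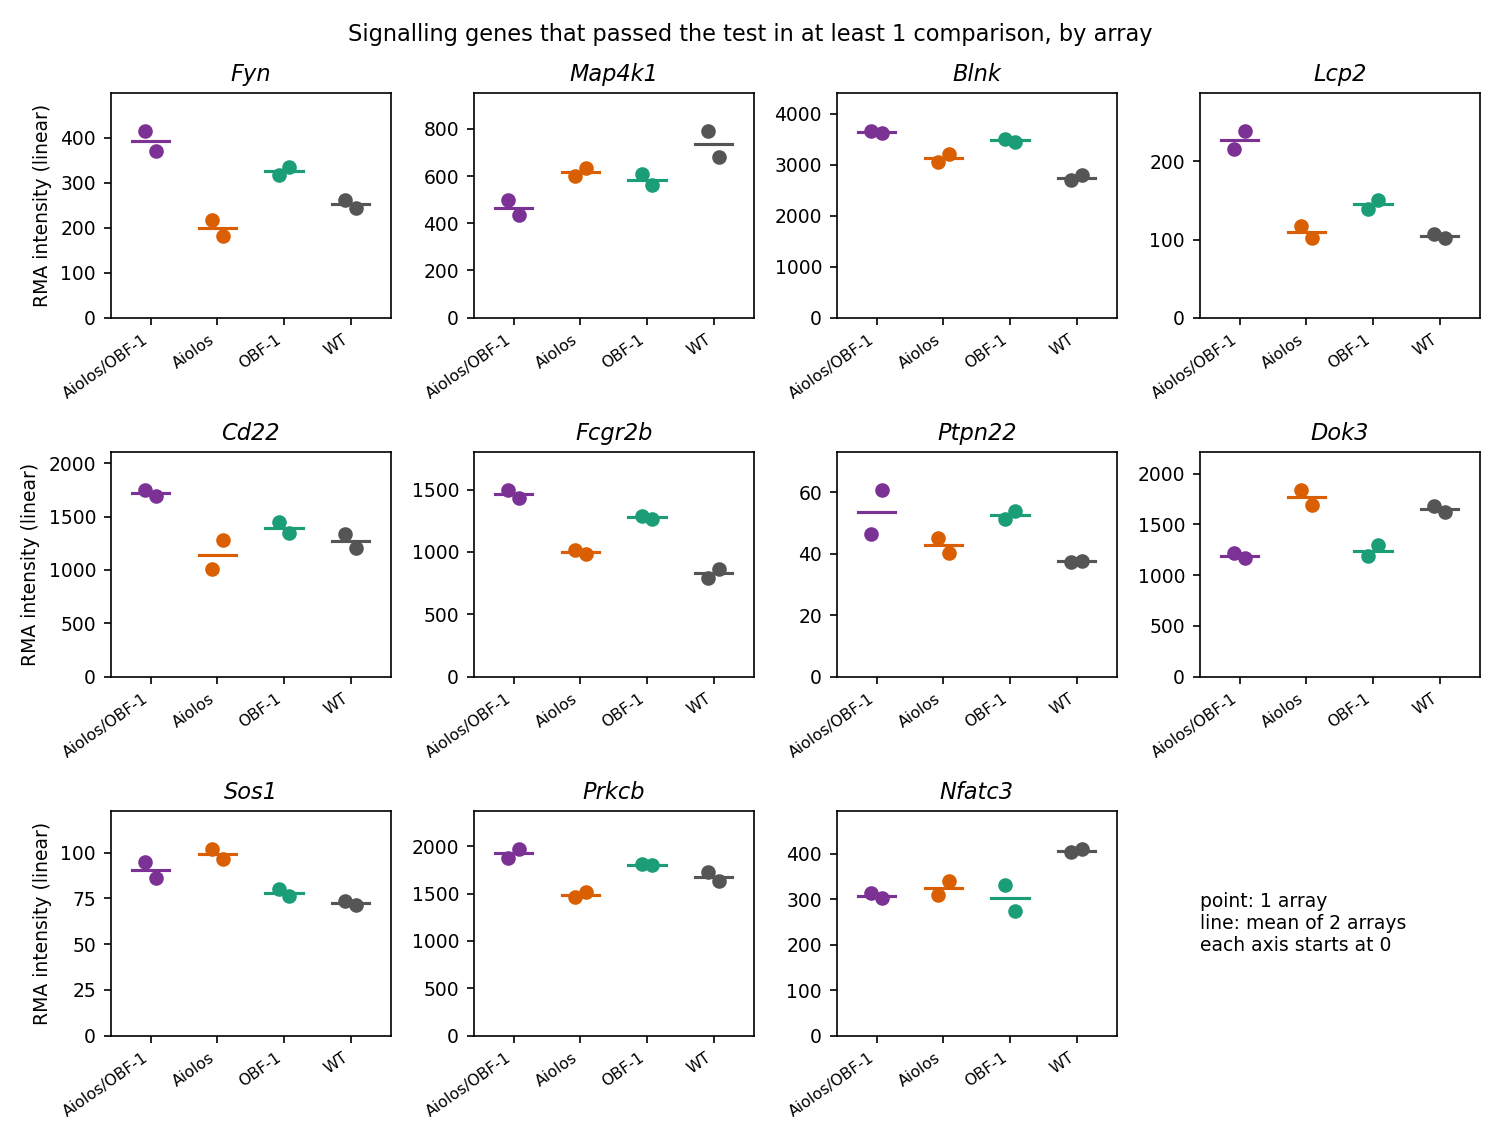
Intensity on each array (y axis, linear units from 0) of the 11 signalling genes that passed in at least 1 comparison, with genotypes from the double mutant on the left to wild type on the right, points for arrays and lines for means of 2. Fcgr2b and Blnk stood in the order double, OBF-1, Aiolos and wild type, whereas Fyn and Prkcb were lowest in the Aiolos mutant.

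Loss of Aiolos alone changed 1 of the 33 genes, Sos1. It had 94.9 and 86.3 units in double mutants, 102 and 96.4 in Aiolos mutants, 80.0 and 76.2 in OBF-1 mutants and 73.3 and 71.6 in wild type. The Aiolos mutant was highest and wild type lowest, with no genotypes overlapping. The log2 fold change was 0.45 (standard error 0.0925, adjusted p = 0.0354). Members passed at 3.03%, beside 1.78% of all genes (1.02% higher and 0.767% lower) and 2.58% of genes of at least 100 units. An unadjusted p under 0.05 was found for 9 of the 33 members and for 2355 of all 12393 genes. Sos1 did not pass without any 1 of the 4 arrays compared (adjusted p = 0.223 and 0.1 without Aiolos replicates 1 and 2, 0.174 and 0.113 without wild type replicates 1 and 2), nor with the mean of all its probe sets (0.303).

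Loss of OBF-1 alone changed 3 genes, with Lcp2 and Fcgr2b higher and Dok3 lower. These are 9.09% of the members, against 2.28% of all genes (1.15% higher and 1.12% lower) and 3.67% of genes of at least 100 units. After quantile normalization the split was 3 higher and 0 lower, in place of 2 higher and 1 lower. Fcgr2b, with 1287 and 1267 units in the OBF-1 mutant against 792 and 867 in wild type, rose by 0.62 (standard error 0.0911, adjusted p = 0.00347, and 0.0533 without wild type replicate 1). Lcp2 rose by 0.47 (adjusted p = 0.0381), but did not pass without any 1 of the 4 arrays compared (adjusted p = 0.0942 and 0.232 without OBF-1 replicates 1 and 2, 0.152 and 0.194 without wild type replicates 1 and 2), nor as the average of both its probe sets (0.27, adjusted p = 0.15). Dok3 had -0.41 (adjusted p = 0.0472) and passed in 0 of the 8 fits that left out an array, where its adjusted p was 0.0594 to 0.259.

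Ptpn6 had 1344 and 1332 units in double mutants, 1402 and 1467 in Aiolos mutants, 1009 and 1134 in OBF-1 mutants and 1339 and 1334 in wild type. The OBF-1 mutant was below all other arrays. With the probe set read here, which by its type may detect related transcripts, the change of -0.32 did not pass (adjusted p = 0.128). A second Ptpn6 probe set had -0.64 and passed (adjusted p = 0.00573), while in the double mutant it had 0.01 (adjusted p = 0.963).

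Adding the loss of OBF-1 to the loss of Aiolos changed 6 genes. Fyn, Lcp2, Cd22, Fcgr2b and Prkcb were higher and Dok3 lower in the double mutant than in the Aiolos mutant, 18.2% of the members beside 3.41% of all genes (1.92% higher and 1.49% lower) and 5.4% of genes of at least 100 units. After quantile normalization 5 were higher and 2 lower, in place of 5 and 1. Lcp2 and Fyn changed most, by 1.06 (standard error 0.103, adjusted p = 8.55e-05) and 0.99 (standard error 0.109, adjusted p = 0.000251). The second Fyn probe set rose by 0.97 (adjusted p = 0.00019), and that of Lcp2 had -0.03 (adjusted p = 0.893), with 0.51 for the average of both Lcp2 probe sets.

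Cd22 was higher by 0.60 in this comparison (adjusted p = 0.0171), which did not pass without double-mutant replicate 1 (0.0904), double-mutant replicate 2 (0.0875) or Aiolos replicate 1 (0.144), and its second probe set by 1.03 (adjusted p = 0.0054). Fcgr2b was higher by 0.55 (adjusted p = 0.00569, and 0.0658 without Aiolos replicate 2). Of its other 3 probe sets 1 passed here (0.58, adjusted p = 0.0495), and 2 had 0.31 and 0.36 and did not (adjusted p = 0.14 and 0.15). Dok3 was lower, with -0.57 (adjusted p = 0.00602, 0.0559 without double-mutant replicate 2 and 0.0654 without Aiolos replicate 1).

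Prkcb, the protein kinase C isoform that links the receptor to NF-kappaB in B cells, had 1879 and 1971 units in double mutants, 1458 and 1516 in Aiolos mutants, 1807 and 1797 in OBF-1 mutants and 1723 and 1628 in wild type. The Aiolos mutant was lowest and the double mutant highest, without overlap. The change of 0.37 between the double and the Aiolos mutant (standard error 0.0888, adjusted p = 0.0463) passed in 0 of the 8 fits that left out an array, where its adjusted p was 0.0623 to 0.229.

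Adding the loss of Aiolos to the loss of OBF-1 changed 1 gene by the probe sets read, Lcp2, by 0.65 (standard error 0.103, adjusted p = 0.0051), on arrays of different fluidics stations. Lcp2 had 216 and 239 units in the double mutant and 139 and 151 in the OBF-1 mutant, and no arrays overlapped. The average of both Lcp2 probe sets had 0.37. That 1 gene is 3.03% of the members, beside 2.9% of all genes (1.73% higher and 1.17% lower) and 4.83% of genes of at least 100 units. Fyn, Cd22 and Fcgr2b had 0.27, 0.31 and 0.20 and did not pass. Of the second probe sets, those of Fyn (0.45, adjusted p = 0.0426) and Ptpn6 (0.65, adjusted p = 0.00427) passed, whereas the Ptpn6 probe set read had 0.32 (adjusted p = 0.107).

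Averaged over both backgrounds, 4 arrays without OBF-1 against 4 with it, loss of OBF-1 changed 8 genes. Fyn (0.68, adjusted p = 0.000213), Lcp2 (0.76, adjusted p = 5.18e-05), Fcgr2b (0.59, adjusted p = 0.000166), Blnk (0.28, adjusted p = 0.023), Cd22 (0.37, adjusted p = 0.0249) and Ptpn22 (0.40, adjusted p = 0.0194) were higher, and Dok3 (-0.49, adjusted p = 0.000864) and Map4k1 (-0.37, adjusted p = 0.0157) lower. They are 24.2% of the members, beside 5.7% of all genes (3.31% higher and 2.4% lower) and 9.1% of genes of at least 100 units. Fyn, Lcp2, Fcgr2b and Dok3 passed whichever array was left out, and the average of both Lcp2 probe sets had 0.39. Blnk passed in 0 of those 8 fits (adjusted p = 0.0534 to 0.0911). Map4k1 did not pass without replicate 2 of the double mutant (0.0636), Aiolos mutant (0.0722) or OBF-1 mutant (0.0645), or without wild type replicate 1 (0.068). Cd22 did not pass without either double-mutant array (0.0778 and 0.0617), Aiolos replicate 1 (0.0888), OBF-1 replicate 1 (0.0918) or wild type replicate 2 (0.108). Ptpn22 did not pass without replicate 2 of the double mutant (0.0517), Aiolos mutant (0.0898) or OBF-1 mutant (0.0689), or without either wild type array (0.0636 and 0.066).

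The 2 comparisons that make up this average share no arrays. The sign was the same in both for 24 of the 33 genes (72.7%), beside 51.1% of all genes and 61.4% of genes of at least 100 units. Across the 33 genes, which are not independent replicates, the changes correlated with an r of 0.74, against 0.50 over all genes and 0.67 over genes of at least 100 units. For loss of Aiolos with and without OBF-1, also on separate arrays, 23 of 33 genes had the same sign (69.7%, beside 55.1% of all genes and 64.9% of genes of at least 100 units), with an r of 0.37, against 0.41 over all genes and 0.60 over genes of at least 100 units. Both arms of each pair differ in the same wash module or station, so what wash and genotype each add to the shared direction cannot be told apart.

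**Figure D3:**
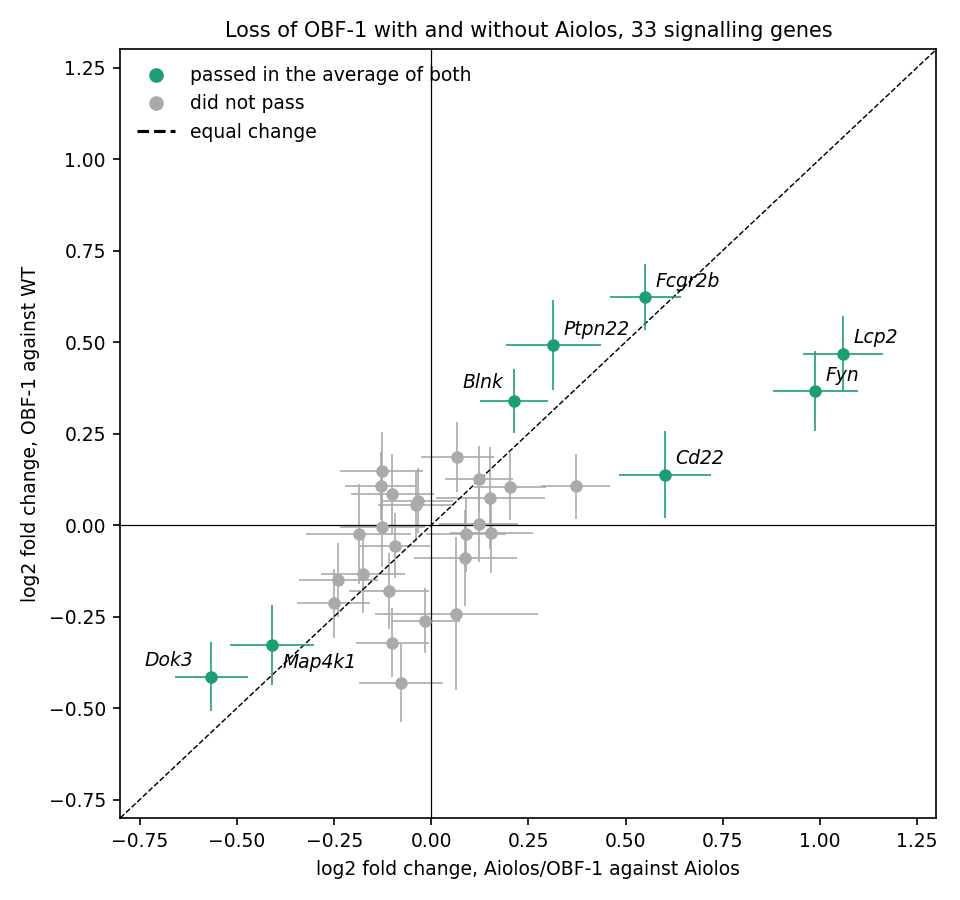
Log2 fold change of 33 signalling genes on loss of OBF-1 without Aiolos (x axis, double mutant against Aiolos mutant) and with Aiolos (y axis, OBF-1 mutant against wild type), 1 point a gene with bars of 1 standard error. Fcgr2b (0.55, 0.62) and Dok3 (-0.57, -0.41) lie near the line of equal change. Lcp2 (1.06, 0.47) and Fyn (0.99, 0.37) lie below it, with interactions that did not pass. The second Lcp2 probe set, not drawn, had -0.03 and 0.08.

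The difference between the backgrounds was tested as the interaction of both deletions, in which additive effects of station and module cancel. In limma 0 of the 33 genes passed, beside 0.161% of all genes. An unadjusted p under 0.05 was found for 1451 of all 12393 genes and, a similar share, for 4 of the 33. These were Fyn (0.62, standard error 0.154, adjusted p = 0.213), Lcp2 (0.59, standard error 0.145, adjusted p = 0.209), Cd22 (0.46, adjusted p = 0.348) and Nfatc3 (0.35, adjusted p = 0.392). By the probe sets read, the double mutant was above the sum of both single-mutant changes for Fyn, Lcp2 and Cd22. For Nfatc3 each single mutant was about as low as the double mutant. The second Lcp2 probe set had the opposite sign (-0.11, adjusted p = 0.758). Second probe sets of Fyn (0.66, adjusted p = 0.149), Cd22 (1.05, adjusted p = 0.172) and Nfatc3 (0.30, adjusted p = 0.618) kept the sign and did not pass.

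Outside the 33 genes, 45 other pathway genes from a list of 60 were measured, and 12 of them passed in the double mutant against wild type, 7 higher and 5 lower (26.7%, beside 9.03% of all genes). Against wild type, 0 were higher and 4 lower in the Aiolos mutant (8.89%, beside 1.78% of all genes), and 1 higher and 3 lower in the OBF-1 mutant (8.89%, beside 2.28%). Between mutants, the double mutant had 2 higher and 3 lower than the Aiolos mutant (11.1%, beside 3.41%), and 3 higher and 2 lower than the OBF-1 mutant (11.1%, beside 2.9%). On average over loss of OBF-1, 3 were higher and 4 lower (15.6%, beside 5.7%). When 1 array was left out, the 12 of the double mutant became 9 to 14 and the 4 of the Aiolos mutant 0 to 2. Besides Rasgrp1, Tec and Sla, described next, those 4 held the kinase gene Gsk3b (-0.58, adjusted p = 0.041), and Cr2, a complement receptor of mature B cells, was lower in the double than in the OBF-1 mutant (-0.44, adjusted p = 0.0263), both named after their values were seen.

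The other pathway genes are each given by 1 probe set. Some have more, as Itpr2 with 5 in all and Ceacam1 with 8, and changes of those further probe sets were not read. Fits without 1 array are not given gene by gene for them either. The largest falls among these genes were those of Itpr3 and Rasgrp1. Itpr3, an inositol trisphosphate receptor that releases calcium from stores, had 276 and 271 units in double mutants, 574 and 651 in Aiolos mutants, 351 and 325 in OBF-1 mutants and 957 and 710 in wild type (-1.59 in the double mutant, adjusted p = 1.33e-05). Rasgrp1, a Ras exchange factor turned on by diacylglycerol, had 48.5 and 46.9, 97.5 and 94.6, 56.8 and 54.3, and 166 and 123 units in the same genotypes (-1.58, adjusted p = 1.03e-05). For both genes the order was double, OBF-1, Aiolos and wild type from low to high, without overlap. Both also fell in the OBF-1 mutant, by 1.29 (adjusted p = 0.000202) and 1.36 (adjusted p = 9.07e-05).

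Cd79b, a signalling chain of the receptor, had 3679 and 3426 units in double mutants, 5706 and 6191 in Aiolos mutants, 4470 and 4437 in OBF-1 mutants and 6215 and 6211 in wild type. Arrays without OBF-1 were below all others, and the log2 fold change of Cd79b was -0.81 for the double mutant (adjusted p = 0.000162) and -0.48 for the OBF-1 mutant (adjusted p = 0.0175). The Btk-related kinase Tec (-0.71, adjusted p = 0.00104) and the adaptor Sla (-0.59, adjusted p = 0.00183) were lower in the double mutant, and also passed in the Aiolos mutant (-0.46, adjusted p = 0.0454, and -0.41, adjusted p = 0.0483).

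Among those that rose, the adaptor Gab1 had 190 and 190 units in the double mutant, against 89.9 and 105 in wild type (0.97, adjusted p = 9.64e-05), and the exchange factor Vav3 was dim, with 61.7 and 60.7, against 32.4 and 30.0 (0.97, adjusted p = 0.000139). Both were higher than in either single mutant as well. Also higher in the double mutant were Itpr2 (0.65, adjusted p = 0.00659), the inhibitory phosphatase Inpp5d, or SHIP (0.54, adjusted p = 0.00358), the adaptor Sh3bp2 (0.51, adjusted p = 0.0107), the coreceptor component Cd81 (0.43, adjusted p = 0.00983) and the inhibitory receptor Ceacam1 (0.42, adjusted p = 0.0402).

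**Figure D4:**
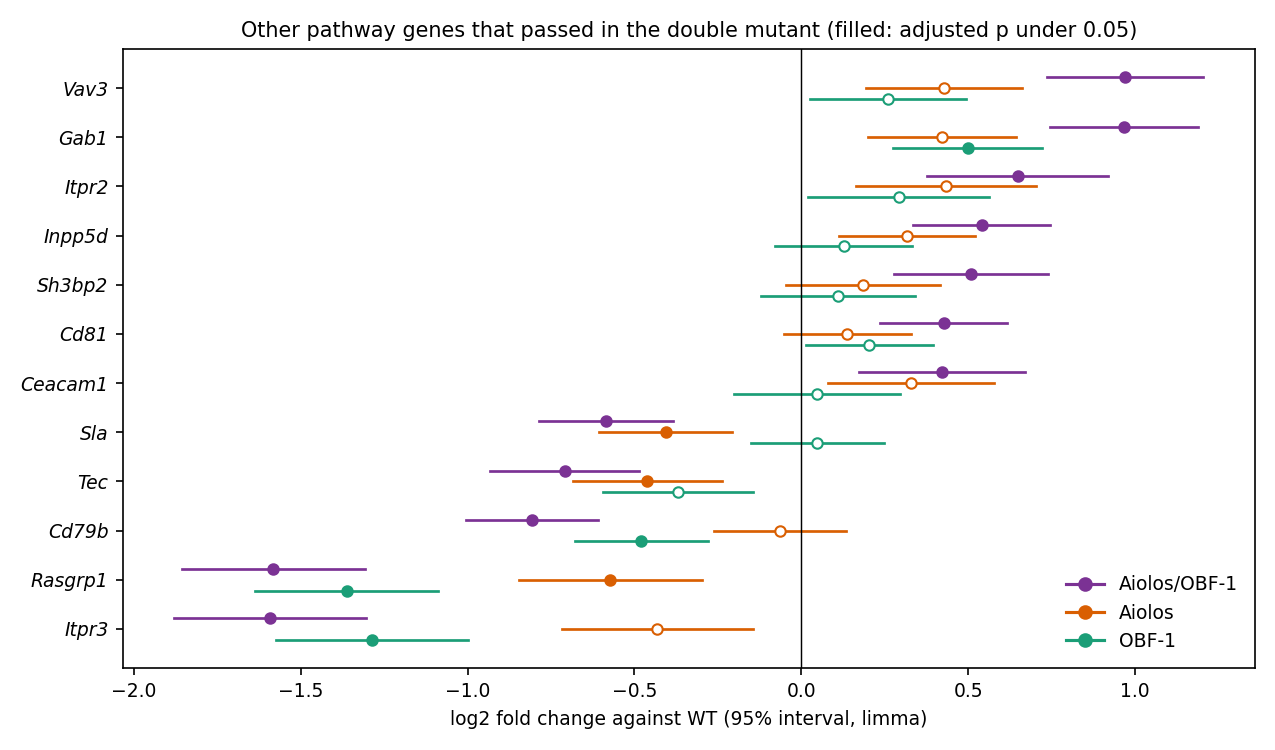
Log2 fold change against wild type (x axis, with 95% limma intervals from 2 arrays per genotype) of the 12 other pathway genes that passed in the double mutant, for the double, Aiolos and OBF-1 mutants, filled where the adjusted p was under 0.05. Itpr3 and Rasgrp1 lie lowest in the double mutant (-1.59 and -1.58), and Gab1 and Vav3 highest (0.97 each).

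Several of the genes that rose are also transcribed in other blood cells, so markers of those cells were read beside them. Of 11 granulocyte and monocyte markers, 10 averaged at least 100 units in every genotype, and their summed intensity was 27780 to 28294 in the double mutant, 25475 to 26286 in the Aiolos mutant, 27459 to 31033 in the OBF-1 mutant and 22414 to 22552 in wild type. Against wild type 7 of the 11 were higher in the double mutant (median log2 0.45), 0 in the Aiolos mutant (0.19) and 4 in the OBF-1 mutant (0.28). Of all genes, 4.9%, 1.02% and 1.15% were higher in these comparisons. Their part in the rises of Lcp2 and Fcgr2b against wild type was not tested. Between the double and the Aiolos mutant 0 of the 11 passed, with log2 fold changes of -0.13 to 0.38 (median 0.11). Their part in the differences of Lcp2 and Fcgr2b between these mutants was not tested either.

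T cell markers bear on Fyn and Lcp2. Their summed intensity over 10 genes was 464 to 480 in the double mutant, 478 in the Aiolos mutant, 422 to 426 in the OBF-1 mutant and 395 to 415 in wild type, and 1 of the 10 averaged at least 100 units. Of these 10 markers only Lat was higher in the double mutant than in wild type (0.64), and 0 passed between the double and the Aiolos mutant. Of 11 immature and mature B cell markers, 5 were lower and 0 higher in the double mutant than in wild type (summed 11573 to 13281 units, against 18496 to 18577), and 4 were lower and 2 higher than in the Aiolos mutant (15510 to 16011 units). Of all genes, 4.13% were lower and 4.9% higher in the double mutant than in wild type. Against the Aiolos mutant, 1.49% were lower and 1.92% higher in the double mutant. Of 5 pro-B and pre-BI markers, 3 were higher in the double mutant than in wild type. These were the surrogate light chain genes Igll1 (a mean of 5656 units, against 304) and Vpreb1 (3360, against 193) and, by less, Dntt (106, against 70.6). Kit had 43.6 units, against 39.6, and Flt3 106, against 109, and neither passed. The paper's PCR found RNA of lambda5, encoded by Igll1, still high in sorted small pre-BII cells of the double mutant. It reports that Vpreb1 also depends on both factors. Igll1 and Vpreb1 therefore do not measure the share of pro-B or pre-BI cells in these mutants.

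Some markers of pre-B cells, and 2 of the 5 on the plasma cell list, also moved with loss of OBF-1. Of the 10 pre-B cell markers, 3 were higher and 3 lower in the double mutant than in wild type. In the OBF-1 mutant 2 were higher and 2 lower, and between the double and the Aiolos mutant 3 were higher and 2 lower. Of all genes, 4.9% were higher and 4.13% lower in the first of these comparisons. The shares were 1.15% and 1.12% in the second, and 1.92% and 1.49% in the third. They also stand beside the plasma cell, erythroid and NK cell lists below. Il7r, a cytokine receptor of early B cells, averaged 3307 units in the double mutant, 2159 in the Aiolos mutant, 2692 in the OBF-1 mutant and 1798 in wild type, and Vpreb3 1798, 5917, 1152 and 5909 units in the same genotypes. Of 5 plasma cell markers the same 2, Sdc1 and Irf4, were higher in the double mutant and in the OBF-1 mutant than in wild type. Both were also higher in the double than in the Aiolos mutant (0.90 and 0.59). Prdm1, Xbp1 and Jchain did not pass in these comparisons. Prdm1 averaged 55.3, 53.4, 68.3 and 63.3 units in the double, Aiolos and OBF-1 mutants and wild type. In the same order Xbp1 averaged 751, 640, 657 and 669 units, and Jchain 179, 229, 154 and 111. The plasma cell list summed to 4180 to 4518 units in the double mutant, 2913 to 3208 in the Aiolos mutant, 3752 to 3986 in the OBF-1 mutant and 2729 to 2954 in wild type. Of 6 erythroid markers 2 were higher than in wild type in the double mutant and 2 in the OBF-1 mutant, and 0 passed between the double and the Aiolos mutant. Of 5 NK cell markers 0 passed in these comparisons. The part of these lists in the changes of the signalling genes was not tested.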

How the data were processed

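Gene expression was measured on Affymetrix MOE430A arrays, 2 per genotype, from RNA of separate pools of sorted cells by the methods. By the submitters' processing notes, the authors computed the deposited intensities with RMA (background correction, quantile normalization and a summary over probes). The methods name other software, Affymetrix Microarray suite and GeneSpring, and which made the deposited values is not settled beyond those notes. The RMA version and the genome build are not given in the sources used here. Of 22690 probe sets, 64 controls were left out. Gene names came from the platform annotation, which gave 1 symbol for 20380 probe sets, several for 691 and none for 1555, and probe sets with several were not read for a gene.

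The log2 of each deposited intensity was fitted with limma 3.58.1 in R 4.3.3, with 1 mean per genotype over all 8 arrays and variances moderated by eBayes (prior degrees of freedom 7.69, residual 4). Tests were two-sided, and p-values were adjusted by Benjamini-Hochberg over 22626 probe sets. The 2 arrays per genotype limit the precision. The p-values rest on the spread within genotypes, pooled over all genotypes and moderated toward that of all probe sets, not only on the arrays compared. The fit was tested on simulated data.

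The genes and the lists were chosen with earlier results of these data known, so their counts are descriptions beside those of all genes. Genes that passed in any of 7 comparisons are given array by array, the other members by their changes. Of the other pathway genes, those that passed in the double mutant or averaged over loss of OBF-1 are named. Alternatives were quantile normalization, median centring, an intensity filter of 100, a pseudocount of 16, no moderation, a trend and robust fit, only the genotypes compared, a replicate block, averaging the probe sets of each gene, and 8 fits without 1 array each.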

Additional observations from a re-analysis of the deposited data

How the results depend on the processing

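The signs of the 28 changes that passed among the signalling genes, 1 for each gene and comparison, were kept under up to 17 alternatives each, 360 times with the test still passed and 105 times not. Without moderation of variances the number of genes that passed was 3 in the double mutant against wild type (Blnk, Lcp2 and Fcgr2b), 0 in the Aiolos mutant, 0 in the OBF-1 mutant, 0 between the double and the Aiolos mutant, 0 between the double and the OBF-1 mutant and 1 averaged over loss of OBF-1. That fit has only 4 residual degrees of freedom. For the Aiolos mutant against wild type the count was also 0 with the intensity filter, which leaves out Sos1, with only the genotypes compared and with a gene's probe sets averaged. For the OBF-1 mutant it was 5 with the intensity filter and 5 with the trend and robust fit. Between the double and the OBF-1 mutant it was 2 after quantile normalization, 2 with the filter, 2 with the pseudocount, 3 with the trend and robust fit and 3 with probe sets averaged, and the cause was not tested.

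Leaving out each array in turn gave 4 to 9 genes in the double mutant against wild type, 0 to 1 in the Aiolos mutant, 0 to 3 in the OBF-1 mutant, 3 to 5 between the double and the Aiolos mutant, 1 between the double and the OBF-1 mutant, 0 in the interaction and 4 to 7 averaged over loss of OBF-1. An arm left with 1 array was assumed to vary like the other genotypes. The main fit did not pair arrays by replicate number. Deviations of same-numbered arrays correlated with an r of -0.088 to 0.103 over the 6 pairs of genotypes. Such low values show little effect shared by replicate number, but cannot settle whether pools or runs were paired. With the replicate block the counts were 9, 1, 2, 5, 1, 0 and 8 in the order of the preceding list. All these alternative fits also change how readily any probe set passes, and the share of all probe sets passing in each is not given here. The counts therefore do not show whether the signalling genes were more or less stable than other genes. Ptpn22, Vav3 and Cr2 lay below the array medians on every array and Rasgrp1 and Sh3bp2 on some, where background is a larger part of the signal.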
